A study of Mus musculus with 54 samples.

Results

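The genes of the subunits of Polycomb repressive complex 2 (PRC2) were followed through the differentiation of mouse embryonic stem (ES) cells. They were chosen by name: Ezh1, Ezh2, Eed, Suz12, Jarid2, Mtf2, Phf1, Phf19, Aebp2 and Rbbp7, 10 genes of 38363 entries in a table of retinoic acid (RA) treatment and of 39055 entries in a table of LIF withdrawal and sorted lineages. All 10 had at least 1 FPKM (fragments per kilobase of transcript, scaled to the size of the library) in each of the 8 RA libraries. The study asked how the long noncoding RNA Haunt and its locus, next to the HOXA genes, act during differentiation, and the 2 tables cover 20 of its 54 samples. None of the remaining 34 is analysed here.

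In the RA set, cells of the line 46C (strain 129/Ola, with GFP inserted at Sox1) were either wild type (WT-1 and WT-2) or carried a 58 kb deletion at the Haunt locus (58 kb KO, libraries KO-i and KO-j). Both genotypes spent a day in N2B27, a medium free of serum, with LIF and "2i", then went without these into 2 µM RA, and were harvested at day 2 or day 4, with 2 libraries for each genotype and day. In the other set, wild-type ES cells grown in serum with LIF (day 0) were followed after LIF was withdrawn. Its columns for day 0, day 2 and day 6 hold the authors' means of 3 libraries (CJ7 and JF4 cells), 2 libraries (J1 and CJ7 cells) and 3 libraries (JF4, J1 and CJ7 cells), so the mixture of lines (strains 129S1/SVImJ and 129S4/SvJae) differs between days. Day 4 is a single CJ7 library. Mesendoderm cells (ME, sorted for GFP in a T-GFP line after 6 days without LIF), neural progenitor cells (NPC, 46C cells sorted for Sox1-GFP after 6 days of neural culture) and neural stem cells (NSC, the sorted cells expanded to passage 15 with EGF and FGF-2) are single libraries as well. Whether the libraries of a group stem from separate cultures is not stated, so p-values capture the spread between these samples alone, and that spread may be technical.

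PRC2 places methyl groups on lysine 27 of histone H3, a mark of silenced developmental genes such as the HOX clusters in ES cells. Its core joins a catalytic subunit, EZH2 or its paralog EZH1, to EED, which reads the mark and stimulates the enzyme, SUZ12, the scaffold, and a histone-binding protein, RBBP4 or RBBP7. Accessory subunits define alternative forms of the complex: the Polycomb-like proteins PHF1, MTF2 and PHF19, which help to bring it to CpG islands, are found in one form, and JARID2 and AEBP2 in the other.

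The estimated depth of the RA libraries was 9.04 to 16.4 M reads, and replicate libraries correlated across genes at 0.973 to 0.984. At day 2, Haunt (Gm15055) was at 128 FPKM (WT-1), 142 (WT-2), 1.13 (KO-i) and 0 (KO-j), and at day 4 at 31.8, 40.6, 3.08 and 0.447 in that order. The labelled cell states had their markers: T was at 192 FPKM and Mixl1 at 115 in ME, Sox1 at 21.8 and Pax6 at 55.9 in NPC, and Fabp7 at 1227 and Olig2 at 211 in NSC, while Pou5f1 was at 997 at day 0 and 0.391 in NSC. In the RA set the summed FPKM of 7 ES cell markers was 413 to 575 at day 2 and 91.6 to 108 at day 4 in WT, and 200.5 to 445 and 69.3 to 123 in 58 kb KO. Of the 6 ES markers tested, Pou5f1, Nanog, Zfp42 and Esrrb fell, Klf4 rose by 0.41 on the log2(FPKM + 1) scale (limma adjusted p = 0.0317) and Tbx3 did not pass, while Dppa3 was under 1 FPKM throughout. Of 5 radial glia markers 3 were tested and all 3 rose: Vim, Nes and Slc1a3, by 1.38, 1.34 and 1.04 over both genotypes (limma adjusted p = 0.000622, 0.00129 and 0.00137). Fabp7 and Olig2, named above for NSC, were not tested and reached at most 0.445 and 0.196 FPKM in any RA library. The summed FPKM of the 5 radial glia markers, most of it Vim, was 119 to 135 at day 2 and 314 to 338 at day 4 in WT, and 83.5 to 108 and 209 to 309 in 58 kb KO. Of 5 neural progenitor markers 4 were tested. Pax6 and Nes rose by 1.06 and 1.34, and Sox3 fell by 0.47 (limma adjusted p = 0.00173, 0.00129 and 0.0298). Sox1 did not pass, at -0.53 (limma adjusted p = 0.0507). The sum of 6 extraembryonic endoderm markers was 43.2 to 60.8 and 156 to 168 in WT, and 38.6 to 42.0 and 87.5 to 96.7 in 58 kb KO. KO-i at day 2 had the lowest ES marker sum of the day 2 libraries. The part of this change in cell states in the results below was not tested, and in such bulk samples fewer cells of a type and less RNA per cell cannot be told apart.

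Between day 2 and day 4 of RA, 4 of the 10 genes fell over both genotypes and none rose. These were Mtf2, Phf19, Jarid2 and Ezh2, that is 3 accessory subunits and a catalytic one, whose paralog Ezh1 did not pass. Of all 15705 genes tested 17.5% fell and 21.7% rose in this comparison, so that 44.7% of the calls were falls. With values centred on the median of each library it was 57.3%. The median change of the 10 genes was -0.22 on the log2(FPKM + 1) scale, against 0.04 over all genes tested. All changes below are on that scale, with limma's Benjamini-Hochberg adjusted p over all genes tested and a threshold of 0.05.

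**Figure D1:**
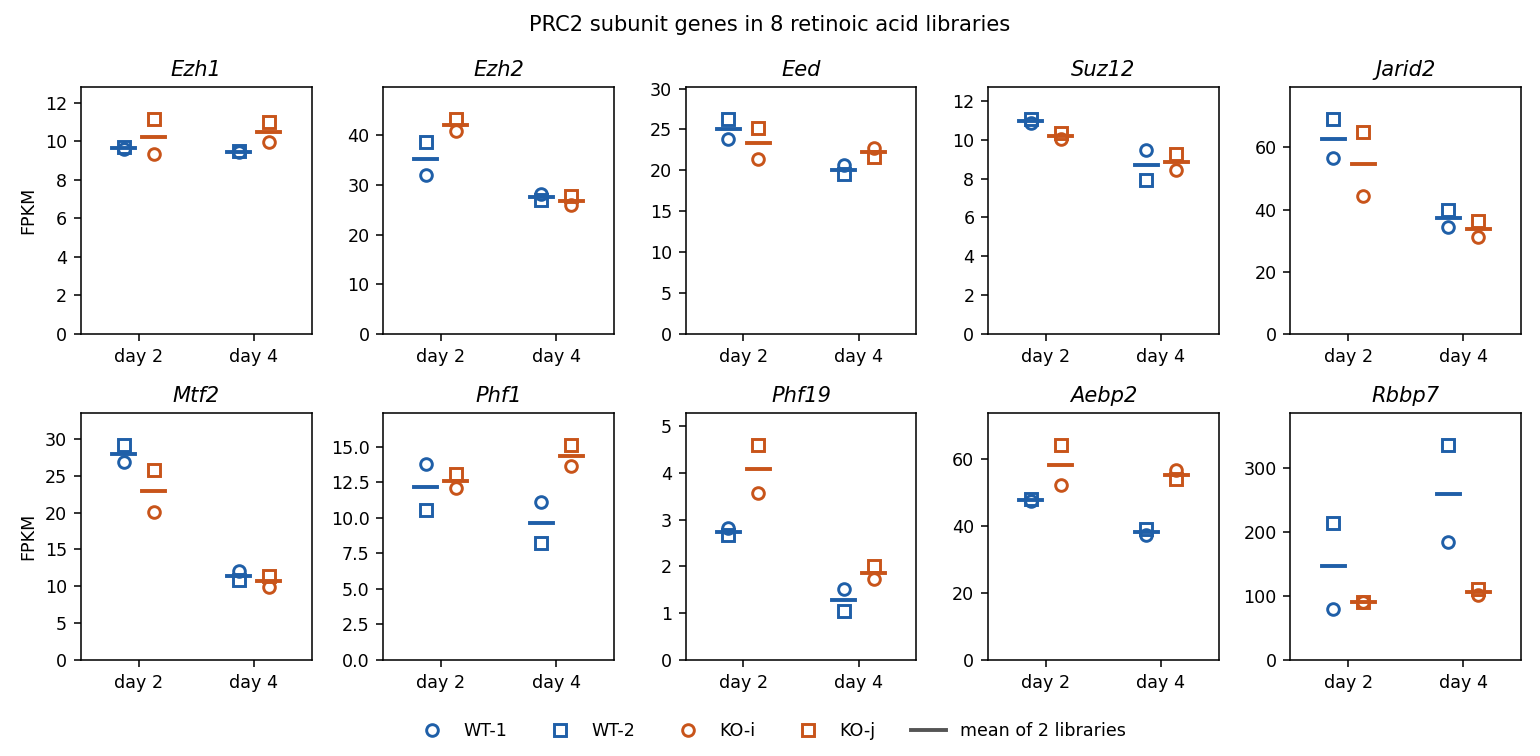
FPKM (vertical axes, from 0) of the 10 PRC2 subunit genes at day 2 and day 4 of RA in WT-1, WT-2, KO-i and KO-j, with a bar for the mean of each pair of libraries. For Mtf2 the day 4 libraries lie at 9.96 to 12.0 FPKM and the day 2 libraries at 20.1 to 29.1, while Ezh1 stays between 9.35 and 11.1 throughout.

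Of the catalytic genes, Ezh2 (chromosome 6, 47480273 to 47545029 in mm9, as the RA table lists it) was at 32.0 (WT-1), 38.7 (WT-2), 40.9 (KO-i) and 43.2 FPKM (KO-j) on day 2. The day 4 levels were 28.2, 27.03, 25.9 and 27.8 in that order. Each of the 4 day 4 libraries lay below each of the day 2 libraries, and WT-1 changed least. The change was -0.48 ± 0.08 (SE) over both genotypes (limma adjusted p = 0.0036). It was -0.63 ± 0.12 in 58 kb KO (limma adjusted p = 0.014) and -0.34 ± 0.12 in WT, where it did not pass (limma adjusted p = 0.0713) unless values were centred. The difference between the changes in the 2 genotypes did not pass (-0.29, limma adjusted p = 0.904), so no genotype difference was shown.

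Ezh1 (chromosome 11, 101052429 to 101087764), which encodes the less active paralog that prevails in many non-dividing tissues, was at 9.58 (WT-1), 9.72 (WT-2), 9.35 (KO-i) and 11.1 FPKM (KO-j) on day 2 and at 9.45, 9.47, 9.95 and 11.0 on day 4. The days overlapped. Its change over both genotypes was 0.0031 ± 0.09 (limma adjusted p = 0.984), with a 95% interval from -0.21 to 0.21. The ratio of Ezh2 to Ezh1 FPKM, which is per length and so can be taken between genes, was therefore lower at day 4: 2.99 (WT-1), 2.85 (WT-2), 2.60 (KO-i) and 2.53 (KO-j), against 3.34, 3.98, 4.38 and 3.88 on day 2. This ratio was not tested.

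Among the remaining core genes, Suz12 (chromosome 11, 79806608 to 79847625) was at 10.8 (WT-1), 11.0 (WT-2), 10.0 (KO-i) and 10.4 FPKM (KO-j) on day 2 and at 9.47, 7.91, 8.42 and 9.29 on day 4. The days did not overlap, yet the change of -0.25 ± 0.09 over both genotypes did not pass (limma adjusted p = 0.0662). Eed (chromosome 7, 97103164 to 97129486) ranged from 21.4 to 26.2 FPKM at day 2 and from 19.6 to 22.7 at day 4, with overlap, and its change was -0.18 ± 0.08 (limma adjusted p = 0.116). With Ezh2, Jarid2, Mtf2 and Phf19, Suz12 made 5 of 10 genes whose 4 day 4 libraries all lay below the 4 of day 2, as did 15.8% of the genes tested. The calls for Suz12 and Eed depend on scaling: with values centred on the median of each library, both passed, at -0.33 and -0.27 (limma adjusted p = 0.0242 and 0.0336), as did Aebp2, at -0.27 (limma adjusted p = 0.0296). In WT alone this centring took the falls from 3 to 6, adding Ezh2, Eed and Aebp2, at -0.42, -0.39 and -0.40 (limma adjusted p = 0.0361, 0.0425 and 0.0374). The share of all genes tested that fell rose as well, from 10.91% to 14.16% in WT. Over both genotypes it rose from 17.54% to 22.55%.

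Of the Polycomb-like genes, Mtf2 (chromosome 5, 108494693 to 108538238), whose protein is the main Polycomb-like subunit of ES cells, fell most. On day 2 it was at 26.9 (WT-1), 29.1 (WT-2), 20.1 (KO-i) and 25.8 FPKM (KO-j), and on day 4 at 12.0, 10.8, 9.96 and 11.4 in the same order. The libraries of the 2 days lay far apart. The change was -1.13 ± 0.10 over both genotypes, -1.22 ± 0.15 in WT and -1.03 ± 0.15 in 58 kb KO (limma adjusted p = 0.000349, 0.0018 and 0.00684). Mtf2 passed in each of these 3 comparisons under every alternative setting that was run.

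Phf19 (chromosome 2, 34749275 to 34769496) was the lowest of the 10 genes, at 2.81 (WT-1), 2.67 (WT-2), 3.57 (KO-i) and 4.58 FPKM (KO-j) on day 2, and at 1.51, 1.04, 1.72 and 2.01 on day 4. All day 4 values were below all day 2 values. Its change was -0.77 ± 0.13 over both genotypes, -0.72 ± 0.19 in WT and -0.82 ± 0.19 in 58 kb KO (limma adjusted p = 0.00389, 0.0289 and 0.0273). At such low values the added 1 FPKM makes the change smaller: with 0.1 FPKM in its place it was -1.07 over both genotypes.

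Phf1 (chromosome 17, 27070072 to 27074835) had no common direction. Its day 2 levels were 13.8 (WT-1), 10.5 (WT-2), 12.1 (KO-i) and 13.1 FPKM (KO-j), and its day 4 levels 11.1, 8.21, 13.6 and 15.1. Both WT libraries were lower and both 58 kb KO libraries higher at day 4 than the library of the same name at day 2. The changes were -0.31 ± 0.18 in WT and 0.18 ± 0.18 in 58 kb KO, and their difference was 0.48 ± 0.25 (limma adjusted p = 0.901). Mtf2 made 56.2% to 68.8% of the summed Polycomb-like FPKM at day 2 and 39.4% to 53.9% at day 4, and Phf1 24.9% to 33.8% and 40.9% to 53.8%.

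Of the genes of the other form, Jarid2 (chromosome 13, 44826640 to 45017012), whose protein binds nucleosomes and is itself methylated by PRC2, was at 56.4 (WT-1), 69.0 (WT-2), 44.3 (KO-i) and 65.0 FPKM (KO-j) on day 2, and at 34.5, 39.9, 31.1 and 36.5 on day 4. The days did not overlap, and KO-i was the lowest library at each. The change was -0.70 ± 0.14 over both genotypes and -0.74 ± 0.20 in WT (limma adjusted p = 0.00663 and 0.0304). In 58 kb KO it was -0.66 ± 0.20 and did not pass (limma adjusted p = 0.0558). There it was -0.93 without KO-i of day 2 (limma adjusted p = 0.0274) and -0.39 without KO-j of day 2 (limma adjusted p = 0.236), each with a lone day 2 library assumed to vary like the other groups, and 1 of the 8 fits that leave out 1 library passed.

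Aebp2 (chromosome 6, 140572210 to 140604002), which encodes a zinc finger partner of SUZ12, was at 47.5 (WT-1), 48.2 (WT-2), 52.2 (KO-i) and 64.1 FPKM (KO-j) on day 2, and at 37.4, 39.2, 56.6 and 54.1 on day 4. WT was lower at day 4, whereas the 58 kb KO days overlapped. The changes were -0.31 ± 0.11 in WT and -0.06 ± 0.11 in 58 kb KO (limma adjusted p = 0.0825 and 0.736). The WT change passed in 3 of the 9 alternatives that leave out no library, and in 0 of the 8 that leave out 1.

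In single genotypes, 3 of the 10 genes fell in WT (Mtf2, Jarid2 and Phf19), where 10.9% of the genes tested fell and 14.4% rose. In 58 kb KO 3 fell (Mtf2, Ezh2 and Phf19), against 7.81% that fell and 10.0% that rose. These single-genotype calls rest on 2 libraries a group: leaving out each library in turn left 1 to 3 genes in WT and 1 to 4 in 58 kb KO, against 4 or 5 over both genotypes. Leaving out either WT library of either day left Mtf2 as the only WT member that fell. In 58 kb KO, Mtf2 alone was left without KO-j of day 2 or KO-i of day 4.

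**Figure D2:**
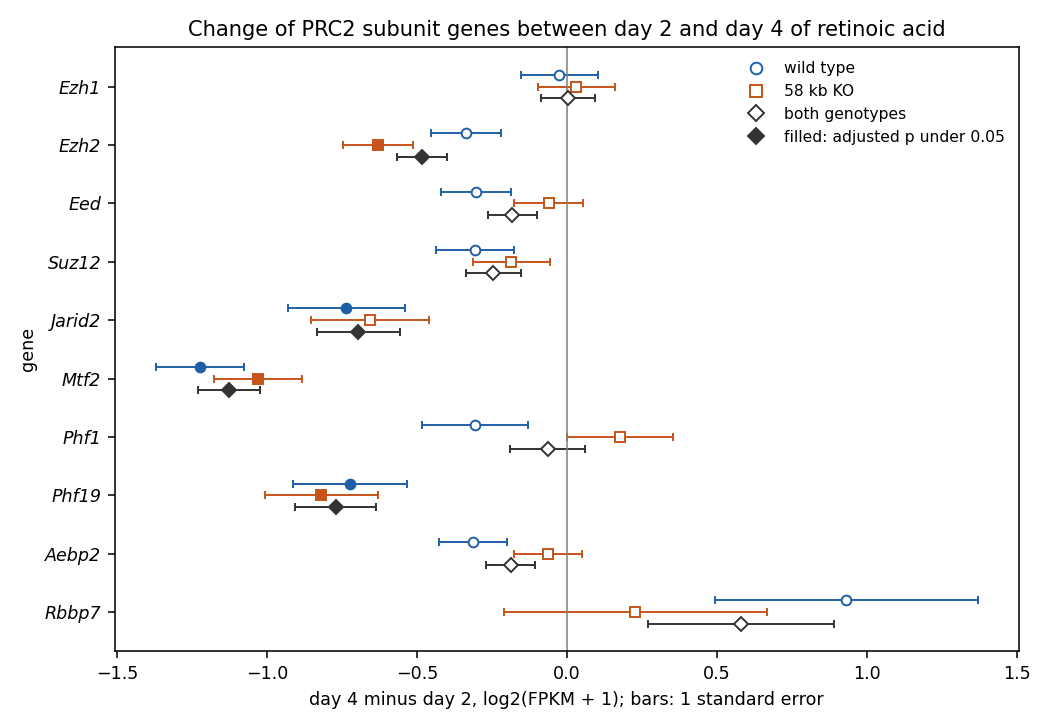
Change from day 2 to day 4 of RA on the log2(FPKM + 1) scale (horizontal axis) for each PRC2 subunit gene, fitted in WT, in 58 kb KO and over both genotypes, with bars of 1 SE and filled symbols where the limma adjusted p is under 0.05. Mtf2 lies farthest to the left, at -1.22, -1.03 and -1.13, and Rbbp7 has the widest bars.

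The promoters of the 4 genes that fell over both genotypes are shown because these members passed in the same RA comparison. They are the RefSeq windows of GRCm38.p6, from 250 bases before to 50 after the start of the gene, written along the gene's strand. All 10 genes matched, with 14 windows in all. Where Jarid2 and Mtf2 have more than 1 window, the upstream one is printed. The RA table lists Jarid2 from 44826640 and the other table from 44826143, in mm9. The windows were not matched to these starts, so the printed one may not be that of the RA entry. Capitals mark matches on either strand to a motif bound by E2F factors, which drive genes of the cell cycle, spelled TTTCCCGC, TTTCGCGC, TTTGCCGC or TTTGGCGC.
Ezh2, chr6:47594981-47595280, minus strand: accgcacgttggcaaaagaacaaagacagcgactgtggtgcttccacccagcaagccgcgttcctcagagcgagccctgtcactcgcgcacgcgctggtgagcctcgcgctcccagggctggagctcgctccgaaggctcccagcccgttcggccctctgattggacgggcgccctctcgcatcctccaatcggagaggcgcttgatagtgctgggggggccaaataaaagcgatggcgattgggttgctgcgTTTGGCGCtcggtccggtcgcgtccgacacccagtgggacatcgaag
Phf19, chr2:34913927-34914226, minus strand: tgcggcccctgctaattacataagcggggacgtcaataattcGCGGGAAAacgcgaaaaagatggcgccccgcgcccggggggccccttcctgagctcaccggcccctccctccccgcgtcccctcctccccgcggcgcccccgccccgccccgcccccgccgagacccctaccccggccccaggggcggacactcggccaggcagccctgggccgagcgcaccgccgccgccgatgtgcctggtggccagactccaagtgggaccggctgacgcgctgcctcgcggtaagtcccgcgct
Mtf2, chr5:108065424-108065723, plus strand: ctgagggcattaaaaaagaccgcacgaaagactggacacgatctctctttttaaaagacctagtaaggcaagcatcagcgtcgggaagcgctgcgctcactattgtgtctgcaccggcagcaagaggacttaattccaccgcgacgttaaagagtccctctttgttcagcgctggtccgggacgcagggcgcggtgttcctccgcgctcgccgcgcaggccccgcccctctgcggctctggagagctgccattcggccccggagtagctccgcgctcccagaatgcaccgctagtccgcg
Jarid2, chr13:44730524-44730823, plus strand: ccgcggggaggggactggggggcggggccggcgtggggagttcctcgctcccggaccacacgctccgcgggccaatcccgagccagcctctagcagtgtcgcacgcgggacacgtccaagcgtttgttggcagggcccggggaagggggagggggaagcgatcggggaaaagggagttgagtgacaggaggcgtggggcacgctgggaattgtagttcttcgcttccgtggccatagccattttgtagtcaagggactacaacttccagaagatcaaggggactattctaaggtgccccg

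The 4 printed windows hold 31 (Ezh2), 38 (Phf19), 30 (Mtf2) and 24 (Jarid2) copies of the dinucleotide CpG, against a median of 7 over the 32851 windows of all genes. The second windows of Mtf2 and Jarid2 hold 2 and 23. Among the genes that did not fall, Ezh1 has 23, Eed 17, Suz12 41, Phf1 24 and Rbbp7 38, and the 3 windows of Aebp2 have 4, 21 and 4. The E2F motif was found in 3 of the 14 windows, those of Ezh2 (starting 4 bases after the start), Phf19 (208 before) and Suz12 (219 before), and in 2.26% of all windows. Each spelling of the motif holds a CpG, and the 14 windows have a median of 23.5 CpG against 7 over all windows. The share among windows alike in CpG was not taken, so the 2 shares are not like for like. A match describes letters only, and its absence from the other windows says nothing of the factor.

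Rbbp7 (chromosome X, 159198304 to 159217022) encodes a histone-binding WD40 protein that PRC2 shares with other chromatin complexes. On day 2 it was at 78.9 (WT-1), 214 (WT-2), 90.9 (KO-i) and 90.0 FPKM (KO-j), and on day 4 at 185, 335, 101 and 111. WT-2 stood far above WT-1 at both days. The other genes of that end of the chromosome shared this: among 36 neighbouring genes within 10 Mb the median difference of WT-2 from WT-1 was 0.99 at day 2 and 0.85 at day 4, and for Rbbp7 itself 1.43 and 0.86. From Tmem29 (start 146832316) to the end of the chromosome, 52 of 55 genes were higher in WT-2 by over 0.5 at each day, whereas the 243 genes before it had medians of 0.01 and -0.03. This boundary was chosen from the values, and what set WT-2 apart was not tested.

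**Figure D3:**
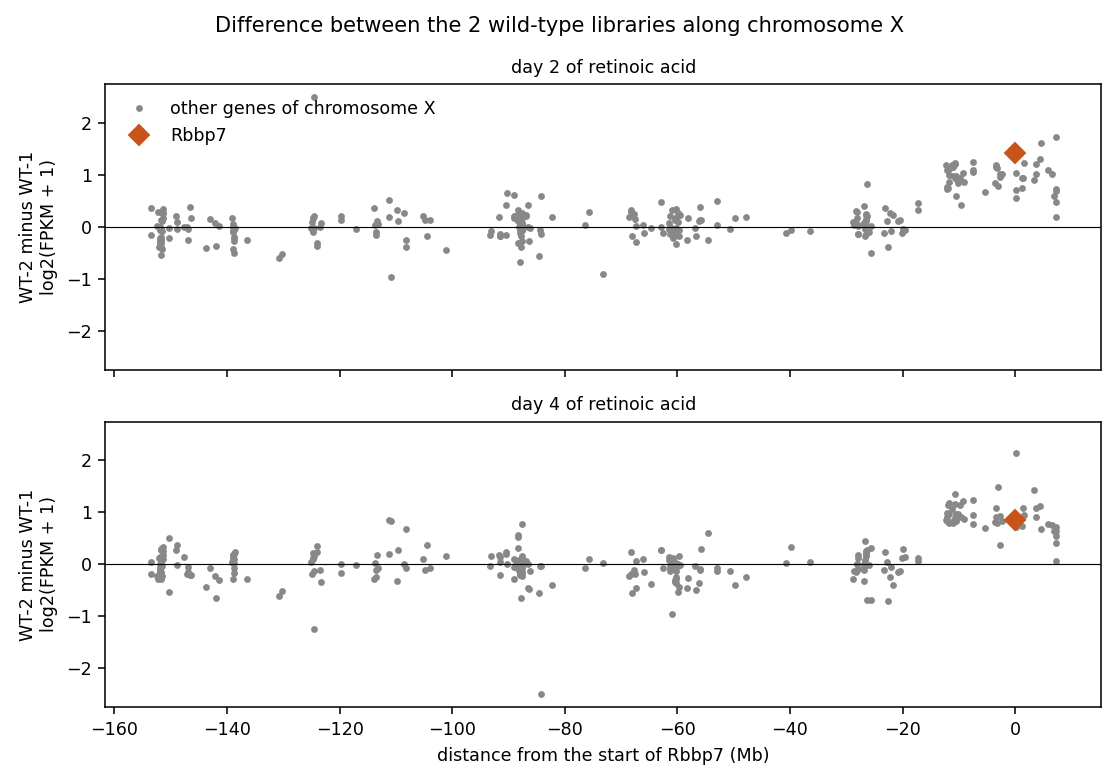
Difference of WT-2 from WT-1 in log2(FPKM + 1) (vertical axis) for genes of chromosome X against their distance from the start of Rbbp7 in Mb, at day 2 (top) and day 4 (bottom) of RA. The genes around Rbbp7 lie near 1, with Rbbp7 at 1.43 and 0.86, and those farther away lie around 0.

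Rbbp7 was higher at day 4 in each of the 4 named libraries, by 1.22, 0.64, 0.15 and 0.30 in WT-1, WT-2, KO-i and KO-j. Its change of 0.58 ± 0.31 over both genotypes did not pass (limma adjusted p = 0.177), nor did that of 0.93 ± 0.44 in WT (limma adjusted p = 0.162). Centred on neighbouring genes, which takes the shared shift out, it was 0.49 over both genotypes and 0.75 in WT and passed (limma adjusted p = 0.017 and 0.0182). The value turns on which WT library of day 2 is used: without WT-2 it was 0.94 over both genotypes and 1.65 in WT (limma adjusted p = 0.018 and 0.0268), and without WT-1 it was 0.22 in each (limma adjusted p = 0.443 and 0.685). Of the 8 fits that leave out 1 library, 1 passed in each comparison. Its paralog Rbbp4 shares much of its sequence, and how shared reads were assigned is not stated.

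Between the genotypes, 0 of the 10 genes passed at day 2 or day 4 (limma). At an unadjusted p under 0.05, 1 did at day 2 (Aebp2) and 3 at day 4 (Aebp2, Phf1 and Rbbp7). Of all genes tested 4 passed at day 2 (0.0255%) and 0 at day 4 (0%), with 803 and 2263 at an unadjusted p under 0.05. The genotype difference between the 2 days had 0 of 10 members and 0 of all genes (0%), and at an unadjusted p under 0.05 it had 0 and 873. The 95% intervals of the genotype differences lay within 1 log2 unit of 0 for 9 of the 10 genes at each day, the exception being Rbbp7.

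The largest of these differences at day 4 apart from that of Rbbp7 was for Phf1, at 0.54 (95% interval 0.13 to 0.95, limma adjusted p = 0.263). Aebp2 followed at 0.52 (0.26 to 0.79, limma adjusted p = 0.171), with both 58 kb KO libraries above both WT libraries at each day. Ezh2 and Aebp2 share chromosome 6 with the deletion, and Ezh2 ends 4.51 Mb before Haunt. Around both, KO-j stood above the WT mean: the median over the genes within 10 Mb was 0.21 at day 2 and 0.12 at day 4 near Ezh2 (66 genes), and 0.21 and 0.23 near Aebp2 (50 genes). KO-i differed there by 0.05 and 0.01, and by 0.02 and 0.11. Centred on neighbouring genes, the difference of Aebp2 at day 4 was 0.35 (limma adjusted p = 0.251), and the part of the neighbours' shift in it was not tested further.

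Rbbp7 differed by -1.22 at day 4 (95% interval -2.25 to -0.20, limma adjusted p = 0.288) and by -0.52 at day 2. The direction at day 2 rests on WT-2: against WT-1 alone, KO-i and KO-j differed by 0.20 and 0.19. At day 4 they differed from WT-1 alone by -0.86 and -0.73, where the 36 neighbours differed by -0.11 and -0.21.

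LIF withdrawal and the sorted lineages give no test, since the columns are means or single libraries, and a gene was called lower or higher when it differed from day 0 by at least 1 unit of log2(FPKM + 1). By this rule 3 of the 10 genes were lower at day 2, 4 at day 4, 4 at day 6, 4 in ME, 5 in NPC and 6 in NSC. Of 14189 genes 5.07%, 8.62%, 6.97%, 10.7%, 11.7% and 16.5% were lower in these columns. A single member was called higher, Phf1 in ME, at 3.25 FPKM in a single library against 0.998 at day 0. Of the 14189 genes 650, 927, 1613, 1305, 2080 and 2907 were higher in the same columns. The median difference of the 10 genes ran from -0.53 at day 4 to -1.13 in NSC, and that of all genes from -0.02 to 0.07. All columns share the same day 0, so they are not independent of each other.

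**Figure D4:**
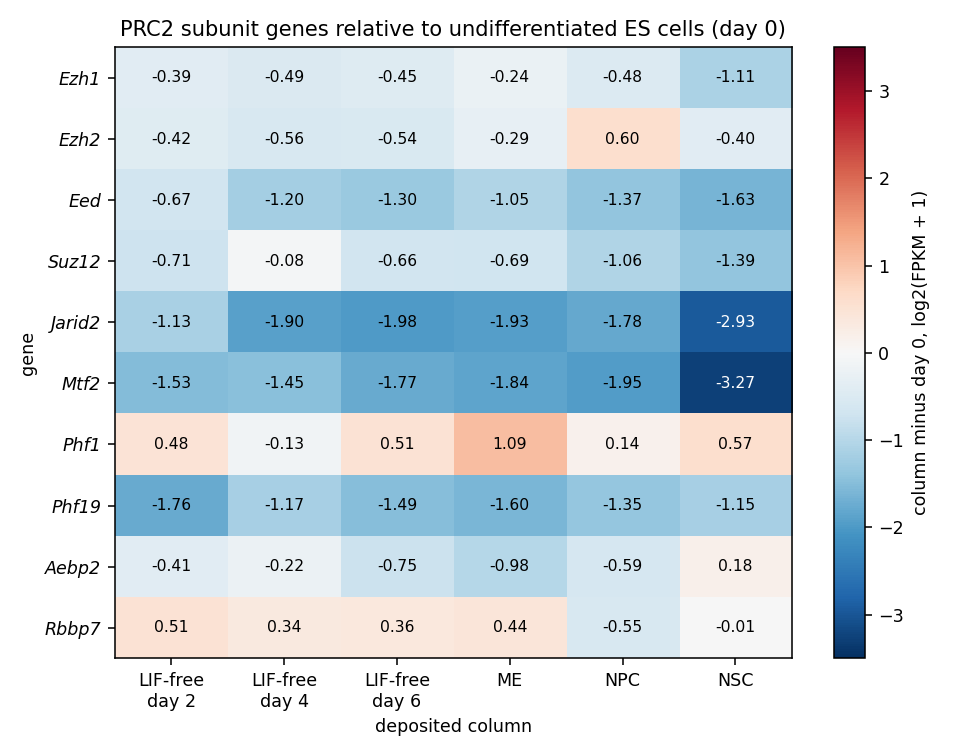
Difference of each column from day 0 in log2(FPKM + 1) for the 10 PRC2 subunit genes (rows) at days 2, 4 and 6 of LIF withdrawal and in ME, NPC and NSC, with the value in each cell and blue for lower. Jarid2, Mtf2 and Phf19 are at -1.13 or lower in every column, and Rbbp7 stays between -0.55 and 0.51.

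Jarid2, Mtf2 and Phf19, which also fell under RA, were lower than day 0 in all 6 columns. Mtf2 went from 77.8 FPKM at day 0 to 26.3, 27.8 and 22.2 at days 2, 4 and 6, and was at 21.1 in ME, 19.4 in NPC and 7.17 in NSC. Jarid2 went from 118 to 53.4, 30.8 and 29.2, and was at 30.2, 33.5 and 14.5 in the lineages. Both had reached most of their day 6 difference by day 4, and NSC was the lowest column of each. Phf19 went from 3.90 to 0.446, 1.18 and 0.748, and was at 0.619, 0.929 and 1.20.

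Ezh2 differed by less than 1 log2 unit from day 0 in every column. It was at 139 FPKM at day 0, 104, 93.6 and 95.1 at days 2, 4 and 6, 113 in ME, 211 in NPC and 105 in NSC, and so lowest at day 4, at 67.4% of day 0, and highest in NPC, at 152%. Ezh1 was at 4.32 at day 0, between 2.78 and 3.52 from day 2 to NPC, and lowest in NSC at 1.47. The ratio of Ezh2 to Ezh1 was 32.1 to 33.9 from day 0 to day 6 and in ME, 74.8 in NPC and 71.5 in NSC. Against day 0, NPC had both higher Ezh2 (152%) and lower Ezh1 (65.2%). In NSC both were lower, Ezh2 at 75.6% and Ezh1 at 34.0% of day 0. The proliferation genes, 18 in all, had a median difference from day 0 of -0.17 in NPC and -0.42 in NSC, with 3 and 4 of 18 lower and 0 higher. Of all 14189 genes 11.7% and 16.5% were lower in these 2 columns, and 2080 and 2907 genes were higher.

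Of the core partners, Eed went from 120 FPKM at day 0 to 74.9, 51.6 and 48.0 at days 2, 4 and 6, and was at 57.3 in ME, 45.8 in NPC and 37.9 in NSC. It was thus called lower from day 4 on and in each lineage. Suz12 was at 41.2 at day 0, 24.7 (day 2), 38.9 (day 4, the single CJ7 library), 25.7 (day 6), 25.2 in ME, 19.2 in NPC and 15.1 in NSC, and was called lower in the 2 neural columns. Rbbp7 was at 273 at day 0, 346 to 390 at days 2 to 6 and in ME, 186 in NPC and 271 in NSC.

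Phf1 and Aebp2 did not follow these. Phf1 was at 0.998 FPKM at day 0, between 0.825 and 1.98 in the LIF withdrawal, NPC and NSC columns, and at 3.25 in ME. Aebp2 was at 59.7 at day 0, lowest in ME at 29.7 and highest in NSC at 68.0. As a result the makeup of the accessory transcripts differed between columns. The Polycomb-like genes made 31.8% of the summed FPKM of the 5 accessory genes at day 0 and 11.1% in NSC, and Jarid2 made 66.3% of Jarid2 and Aebp2 together at day 0 and 17.6% in NSC.

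**Figure D5:**
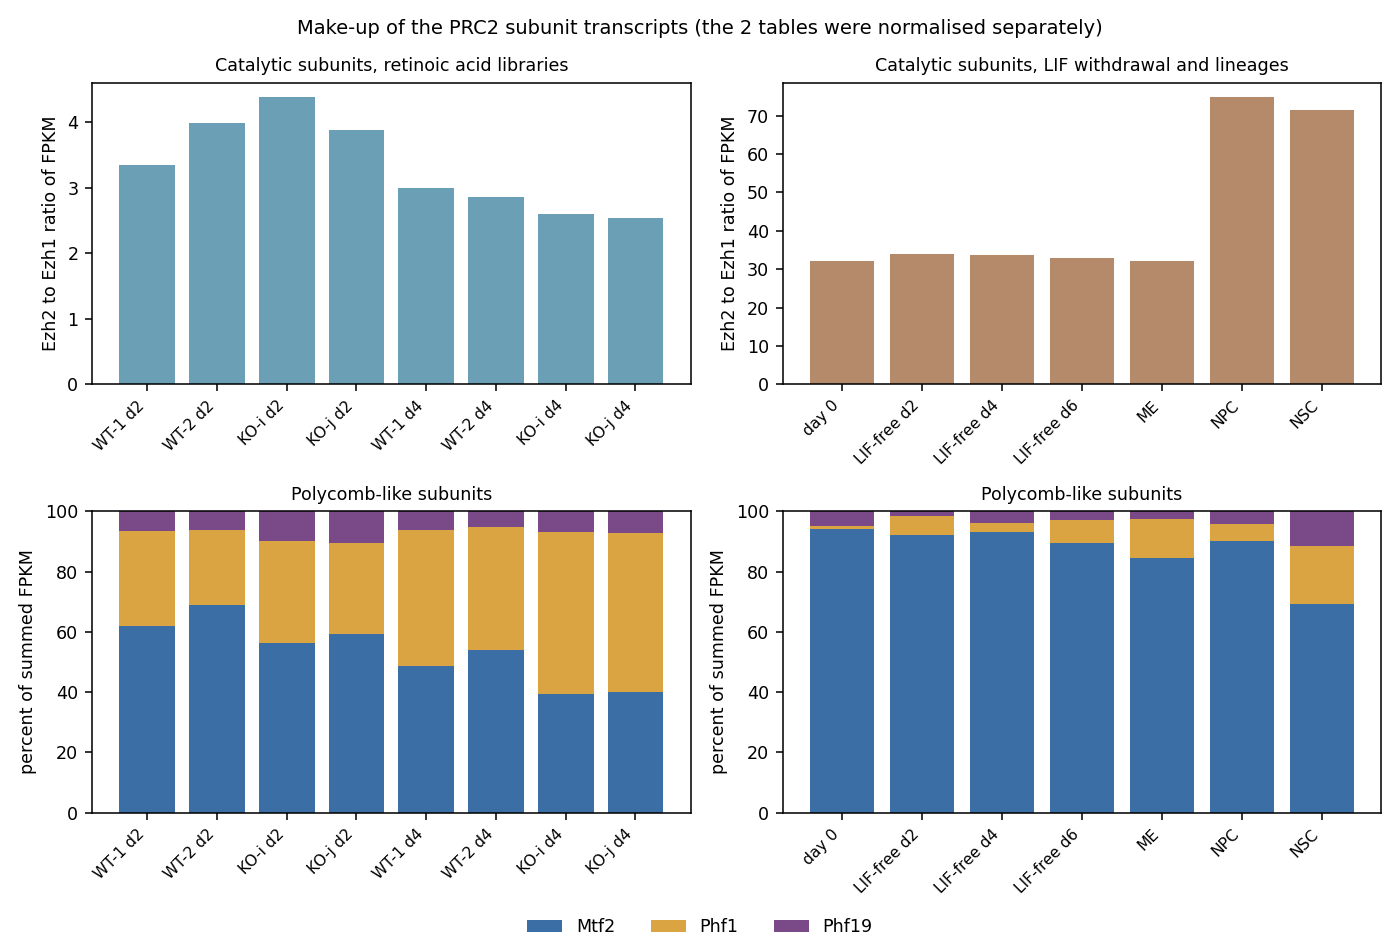
Top: ratio of Ezh2 to Ezh1 FPKM in the 8 RA libraries (left) and in the LIF withdrawal and lineage columns (right, on its own axis). Bottom: shares of Mtf2, Phf1 and Phf19 in their summed FPKM. On the right Mtf2 makes 94.1% at day 0 and 69.3% in NSC, and on the left 39.4% to 68.8% in the RA libraries. The sets were normalised separately and made with different kits, so left and right are not compared.

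The 2 tables were normalised separately and made with different library kits, so their levels are not set against each other. With each table centred, the patterns of the members over the 15 columns were compared as a description, since columns share tables, controls and lines. Jarid2 and Mtf2 correlated at 0.94, Jarid2 and Eed at 0.92, and Mtf2 and Suz12 at 0.85, while Ezh2 correlated with the other members at -0.47 to 0.51. The 6927 genes compared had a mean of at least 5 FPKM in each table, apart from the members, which were kept at any level. Ezh1 lay under 5 FPKM throughout the LIF withdrawal and lineage columns, and Phf19 in both tables. Those most like Jarid2 were Cobl, Triml2 and 4930500J02Rik (0.98, 0.98 and 0.97). Most like Ezh2 were Kif15 and Cdca2, which act in mitosis, and Ttc5 (0.88, 0.86 and 0.86). For Ezh1 they were Cbx7, a PRC1 subunit, Oxsr1 and Slc25a13 (0.92, 0.91 and 0.90), and for Phf19 Dock6, the receptor gene Kit and Fanci (0.93, 0.88 and 0.87).

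Other genes of the H3K27 pathway were read in the same RA fit, over both genotypes. Of the further PRC2 partners 4 of 5 were tested, and 3 fell and 1 rose. E130012A19Rik (Epop), which encodes a partner of the Polycomb-like form, went from 155 (WT-1), 164 (WT-2), 91.5 (KO-i) and 114 FPKM (KO-j) to 81.1, 81.3, 58.2 and 79.5, a change of -0.77 ± 0.11 (limma adjusted p = 0.00209). AU022751 (Ezhip), which encodes an inhibitor of the enzyme, fell by 0.45 ± 0.10 (limma adjusted p = 0.0106), and Rbbp4, the paralog of Rbbp7, fell by 0.24 ± 0.08 (limma adjusted p = 0.0449). Lcor rose by 0.79 ± 0.12 (limma adjusted p = 0.00263) from a range of 1.54 to 2.38 FPKM to 3.28 to 4.61.

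Of the H3K27 demethylase genes, whose enzymes remove the mark, 2 of 3 were tested. Kdm6b went from 31.3 to 37.2 FPKM at day 2 to 50.6 to 66.2 at day 4 and rose by 0.72 ± 0.08 (limma adjusted p = 0.00057), and Kdm6a changed by -0.11 (limma adjusted p = 0.48). Among 19 genes of PRC1, the complex that ubiquitinates histone H2A, 6 rose and 2 fell. Phc1, a Polyhomeotic subunit, fell by 1.08 ± 0.12, while Ring1, the ubiquitin ligase, rose by 0.64 ± 0.10 (limma adjusted p = 0.000725 and 0.00218). Of 9 genes of the H3K4 methyltransferase complexes, which act against Polycomb, 3 fell and 0 rose, against 17.5% and 21.7% of all genes tested. Those that fell encode parts of the core that these complexes share: Ash2l by 0.38 ± 0.06, Wdr5 by 0.36 ± 0.08 and Dpy30 by 0.42 ± 0.10 (limma adjusted p = 0.00304, 0.0082 and 0.0156). The methyltransferase genes Kmt2a, Kmt2b, Kmt2c and Kmt2d did not pass, at 0.17, -0.01, 0.15 and 0.12. Of 18 proliferation genes 12 fell and 0 rose, with a median of -0.40. The 3 with the smallest p were Top2a at -0.60 ± 0.07, Pcna at -0.56 ± 0.08 and Mcm2 at -0.40 ± 0.06 (limma adjusted p = 0.00089, 0.00144 and 0.00189). Mtf2, Phf19, Jarid2 and Ezh2 moved in the same direction as these, and the part of proliferation in their change was not tested.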

How the data were processed

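Gene expression came from 2 tables deposited by the authors, and their values were taken to be FPKM from their range and steps, as no file header gives a unit. Per the submitters' processing notes, Bowtie 1.0.0, TopHat2 2.0.11, MACS 1.4.2, CASAVA and the build mm9 were used, with no role named, and which program made the FPKM is not stated. Per the labels' protocols the kit of the LIF set marks strand and that of the RA set does not, so reads of overlapping genes may be mixed. Starts, listed from 0, are given from 1. Depth is an estimate from the steps of low values: 9.04 to 16.4 M reads for RA, and 27.8 to 40.6 M for the single libraries of the other set. An exact 0 may be a failed estimate.

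Of the RA entries, 15705 genes reached 1 FPKM in 2 or more of the 8 libraries. On their log2(FPKM + 1) values, group means were fitted with limma 3.58.1 (R 4.3.3) and its intensity trend, with 4 residual and 3.50 prior degrees of freedom, and p-values were adjusted by Benjamini-Hochberg over all genes tested. The fit was also run on simulated data with independent noise for each gene. These held no shift shared by the genes of a library, so the run does not bear on centring or on the shift of chromosome X. In the other set, 11 entries with a repeated symbol and 1 with a blank value were left out. Alternatives were another pseudocount, other filters, centring on library, chromosome or neighbouring-gene medians, no trend, fewer groups, a block on the library name and leaving out each library.

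The members, lists, tests and alternatives were chosen with earlier results of these data known, and centring on neighbouring genes was added after seeing the data. Named are all 10 members, up to 3 genes past the test per pathway list and comparison by smallest p, and the 3 genes most alike to each of Ezh1, Ezh2, Jarid2 and Phf19 by Pearson correlation. Rbbp4 meets the rule in 58 kb KO (limma adjusted p = 0.0472), and its values over both genotypes were added after they were seen. Kdm6a, Kmt2a, Kmt2b, Kmt2c and Kmt2d, which did not pass, are named outside the rule, after their values were seen. A gene that the rule would name is not reported here. The labels of 1 sample outside the tables contradict each other, and it has no group here.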

Additional observations from a re-analysis of the deposited data

How the results depend on the processing

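Over both genotypes the falls of Mtf2, Jarid2 and Ezh2 passed in every alternative, and so did that of Phf19 except at a minimum of 5 FPKM, where it was not tested. The counts of members called moved mainly with centring, from 3 in WT to 6 on library medians, 5 on chromosome medians and 5 on neighbouring genes (added after seeing the data), and to 1 with no filter on low values. Over both genotypes they moved from 4 to 7 on library medians and to 7 on neighbouring genes, where 1 of the 7 is the rise of Rbbp7, and in 58 kb KO they were 2 to 4 against 3. Of all genes tested, 10.91% fell in WT and 17.54% over both genotypes without centring. The shares were 14.16% and 22.55% on library medians, 14.93% and 23.05% on chromosome medians, and 13.51% and 20.94% on neighbouring genes. Centring on library or chromosome medians also turned the split of all calls: 43.1% (WT), 43.8% (58 kb KO) and 44.7% (both) were falls without it, 54.9%, 58.3% and 57.3% on library medians, and 56.6%, 58.6% and 57.6% on chromosome medians. Leaving out each library gave 1 to 3 members in WT, 1 to 4 in 58 kb KO and 4 to 5 over both, and 0 to 0 between genotypes and for their difference between days. Genes past the threshold were then 1474 to 4282 in WT (3973 with all libraries), 990 to 2156 in 58 kb KO (2802), 4414 to 5991 over both (6166), 0 to 5 between genotypes at day 2 (4), 0 to 7 at day 4 (0) and 0 to 1 for the difference (0). In 58 kb KO it was 1596 with no filter and 757 with only the 2 groups compared in the fit, which leaves fewer samples. Between genotypes it was 7 with no filter and 0 with only 2 groups at day 2, and 1 at day 4 both with a pseudocount of 0.1 and with no filter. For the difference between days it was 5 with no filter and 1 with no trend. No member was called between genotypes in any alternative. The cause of these shifts was not tested.

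The library names are not stated to pair the days: deviations from the group means correlated at 0.085 for WT and 0.260 for 58 kb KO. With the name as a replicate block 4 members passed in WT and 4 in 58 kb KO, adding the rise of Rbbp7 in WT (0.93, limma adjusted p = 0.0079) and the fall of Jarid2 in 58 kb KO (limma adjusted p = 0.0128), and 5 over both, adding Rbbp7 (limma adjusted p = 0.00725). No block could be fitted between genotypes.

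In the LIF set, genes lower by 1 log2 unit with a pseudocount of 0.1 were 1256 (day 2), 1957 (day 4), 1541 (day 6) and 2495 (ME), against 719, 1223, 989 and 1513. At 1.5-fold they were 1586 (day 2), 2451 (day 4), 2091 (day 6), 2954 (ME), 2914 (NPC) and 3655 (NSC), with 5 members lower at day 2 in place of 3, and 1 higher in NPC (Ezh2) in place of 0. Depth limits Phf19 and, in the LIF set, Phf1, both near 1 FPKM.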
